A study of Mus musculus with 12 samples.

Results

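The auditory nerve of the mouse at postnatal day 10 (P10), shortly before the ear begins to hear, was set against the same nerve on the day of birth (P0). The comparison used 4 of the 12 arrays of the series, 2 at P10 and 2 at P0, chosen by the stage in their titles. All came from untreated CBA/CaJ mice, an inbred strain with good hearing, and both stages shared the strain, the dissection and the array type. The bony shell, the lateral wall and most of the sensory epithelium of the cochlea were removed, which left the modiolus, the core that holds the nerve. The tissue is therefore enriched for nerve and was not sorted for a cell type. Tissue of the left and right ear of a mouse was combined, and every array therefore stands for a separate animal. Values are log2 RMA expression values, and a difference is the P10 mean minus the P0 mean. A gene was called higher or lower at P10 where limma, fitted on all 12 arrays in 6 stage groups, gave an adjusted p under 0.05 and a fold over 1.5.

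In rodents the cochlea is immature at birth and hears only after the second postnatal week has begun. Between these points Schwann cells wrap the axons of the spiral ganglion neurons in myelin, the neurons lose surplus branches and settle their synapses, and proliferation ends in most cell types. Thyroid hormone is required for this maturation in rodents, and the modiolus is also a bone that mineralises.

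Markers of the labelled tissue were looked up at both stages. Of 11 measured markers of spiral ganglion neurons and Schwann cells, 0 were in the lowest 25% of values on both arrays of a stage, which is the limit below which a level is called dim here. This check does not set nerve apart from other cells, since the cartilage and macrophage lists also had 0 genes dim at both stages. Tubb3, a tubulin of neurons, had 9.13 and 8.98 at P10, against 9.02 and 8.69 at P0, and Sox10, the transcription factor of Schwann cells, had 10.66 and 10.63 at P10, against 11.09 and 10.98 at P0. Neither was called, nor were Stmn2 (difference 0.24), Nefm (0.48), Erbb3 (−0.53) or Cdh19 (0.51). Erbb3 gained a call without P10 replicate 1 (−0.60, adjusted p = 0.0162) and Cdh19 without P0 replicate 1 (0.76, adjusted p = 0.0108). Nefl, S100b and Snap25 were higher and Prph and Gata3 lower, though Gata3 lost its call without any one of the 4 arrays (adjusted p between 0.0584 and 0.111) and Prph on the mean of its probe sets. Replicates lay close together: their correlation across probe sets, which are not independent, was 0.9959 at P10 and 0.9962 at P0, and 1.7% and 1.4% of probe sets differed over 1.5-fold between the mice of P10 and of P0. The 3' minus 5' difference of the Actb control probe sets, a sign of RNA integrity, was 0.99 and 0.97 at P10, against 0.92 and 0.95 at P0, and that of Gapdh was 0.18 and 0.40 at P10, against 0.48 and 0.50 at P0.

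More genes fell than rose, yet the large changes were mostly rises. Of 45037 probe sets, 19.3% were called, 4161 (9.24%) higher at P10 and 4534 (10.1%) lower. With each gene represented by its brightest probe set, 24.4% of 18193 genes were called, 1997 higher (11.0%) and 2450 lower (13.5%), and the median difference of all genes was −0.04. These shares of 11.0% and 13.5% are to be set beside every count of list members below. The arrays of the 2 stages did not overlap for any called gene, and 71.1% of all genes had arrays that did not overlap, so the lack of overlap alone marks little. Among called genes, 1074 higher and 993 lower ones changed over 2-fold, 318 and 160 over 4-fold, 109 and 33 over 8-fold, and 38 and 5 over 16-fold. Over 64-fold there were 5 higher and 1 lower. The largest rise was that of Otos (339-fold), on the list of fibrocyte and ion transport genes. The 1 fall over 64-fold was that of Tecta (92.7-fold), on the list of tectorial membrane and supporting cells. In 104 of the higher genes P0 was dim and in 115 of the lower ones P10 was dim, and such folds are given as at least, against the 25th percentile of the array where the dim value lay below it. In 6 named genes only 1 array of the lower stage was dim, and for these the fitted fold is printed. Raising that array to its 25th percentile moved the fold of Mmp13 most, to 15.2, against 22.5 as fitted.

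**Figure D1:**
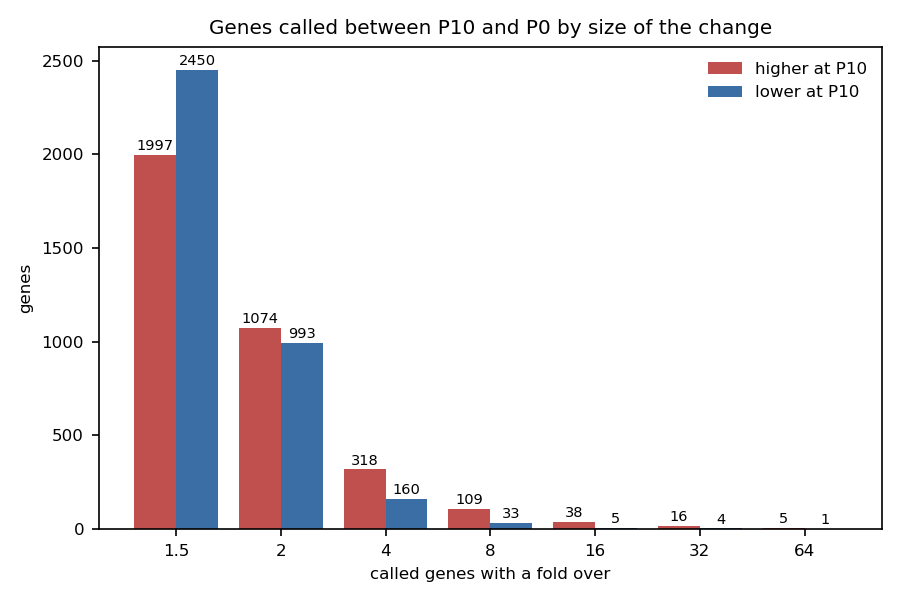
Number of genes called higher (red) and lower (blue) at P10, on the vertical axis, with a fold over each limit on the horizontal axis. Falls outnumber rises at 1.5-fold (2450 against 1997 rises), and rises outnumber falls from 2-fold on (1074 rises, 993 falls) and at 16-fold (38 rises, 5 falls).

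Several of the largest changes were in genes known from bone and from otoconia. The cells that carried these RNAs were not identified. Phex, a peptidase of bone cells that acts on phosphate balance, had 13.23 and 13.07 at P10, against 7.38 and 6.89 at P0 (64.7-fold, adjusted p = 2.25e-07). Panx3, a channel protein of cartilage and bone, rose 44.9-fold, and Ifitm5, a membrane protein of osteoblasts, rose 21.8-fold. Otop1, a proton channel required for otoconia, the crystals of the vestibular organs, had 10.03 and 9.68 at P10, against 4.14 and 4.43 at P0, a rise of at least 27.2-fold. Oc90, the main protein of otoconia, went the other way, with 9.54 and 9.83 at P10, against 13.29 and 13.57 at P0 (13.4-fold lower, adjusted p = 4e-06). For each of these genes the 2 arrays of a stage lay far closer to each other than to the other stage.

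Others of the 25 largest rises had varied functions. Slc36a2, a carrier of small amino acids, had 10.99 and 10.52 at P10, against 5.78 and 5.78 at P0 (31.5-fold). Spink8, a protease inhibitor of the Kazal type, rose 28.8-fold, and Scin, which severs actin filaments, rose 30.9-fold. Klrb1a, a receptor of natural killer cells, rose at least 13.5-fold. Prg2, the major basic protein of eosinophils, had 10.01 and 8.01 at P10, against 4.30 and 4.44 at P0, so that its P10 mice differed from each other by more than most, and both still lay above both P0 mice (at least 15.1-fold).

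The largest falls included receptors, a neuropeptide and a junction protein. Chodl, a membrane lectin, had 4.88 and 4.58 at P10, against 10.03 and 10.16 at P0. Its P10 arrays were dim, and its fall was at least 31.6-fold. Agtr2, the angiotensin receptor that prevails before birth, had 6.69 and 7.28 at P10, against 10.51 and 10.41 at P0 (11.1-fold lower, adjusted p = 4.43e-06), and Npy, a neuropeptide, fell 9.75-fold. Cldn6, a claudin of embryonic tight junctions, fell 12.4-fold, Car9, a carbonic anhydrase induced by hypoxia, fell 10.1-fold, and Ly6h, a membrane-anchored protein of neurons, fell 12.6-fold. Atp6v1b1, a proton pump subunit of acid-secreting epithelia, fell at least 8.17-fold, and Abcg5, a sterol transporter, fell at least 6.89-fold.

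Genes that handle thyroid hormone were among the strongest changes in both directions. Dio2, the deiodinase that converts thyroxine into the active hormone, had 12.43 and 12.63 at P10, against 7.45 and 7.23 at P0 (difference 5.19 ± 0.137 SE, 36.5-fold, adjusted p = 8.38e-08). Slco1c1, a thyroxine transporter of brain capillaries and glia, had 13.38 and 13.02 at P10, against 9.59 and 9.45 at P0 (12.8-fold, adjusted p = 2.29e-07). Both P10 mice exceeded both P0 mice by several log2 units for these 2 genes, while mice of one stage differed by less than 1. Crym, a crystallin-like protein that binds the active hormone in the cytosol, was high at birth and had 7.50 and 7.93 at P10, against 12.91 and 13.07 at P0 (−5.28 ± 0.288 SE, 38.7-fold lower, adjusted p = 2.27e-06). Trhr, the receptor of thyrotropin-releasing hormone, fell at least 2.94-fold, with 1 of its 2 probe sets called.

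Klf9, a transcription factor that thyroid hormone raises in brain, had 13.54 and 13.59 at P10, against 11.32 and 11.51 at P0 (4.44-fold, adjusted p = 4.5e-06), with 6 of its 7 probe sets called higher. Thrsp, named for its response to the hormone, rose 4.36-fold, and Hr, a corepressor that binds the hormone receptor, rose 2.27-fold. These 3 were picked among the called genes of a list. Slco1c1 is also a member of the endothelial list, of whose 34 genes 5 were higher and 9 lower, against 11.0% and 13.5% of all genes. Without P0 replicate 1 or P10 replicate 1 the lower ones were 5. The part of vessels in this result was not tested, and in bulk tissue fewer cells of a type and less RNA per cell cannot be told apart.

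**Figure D2:**
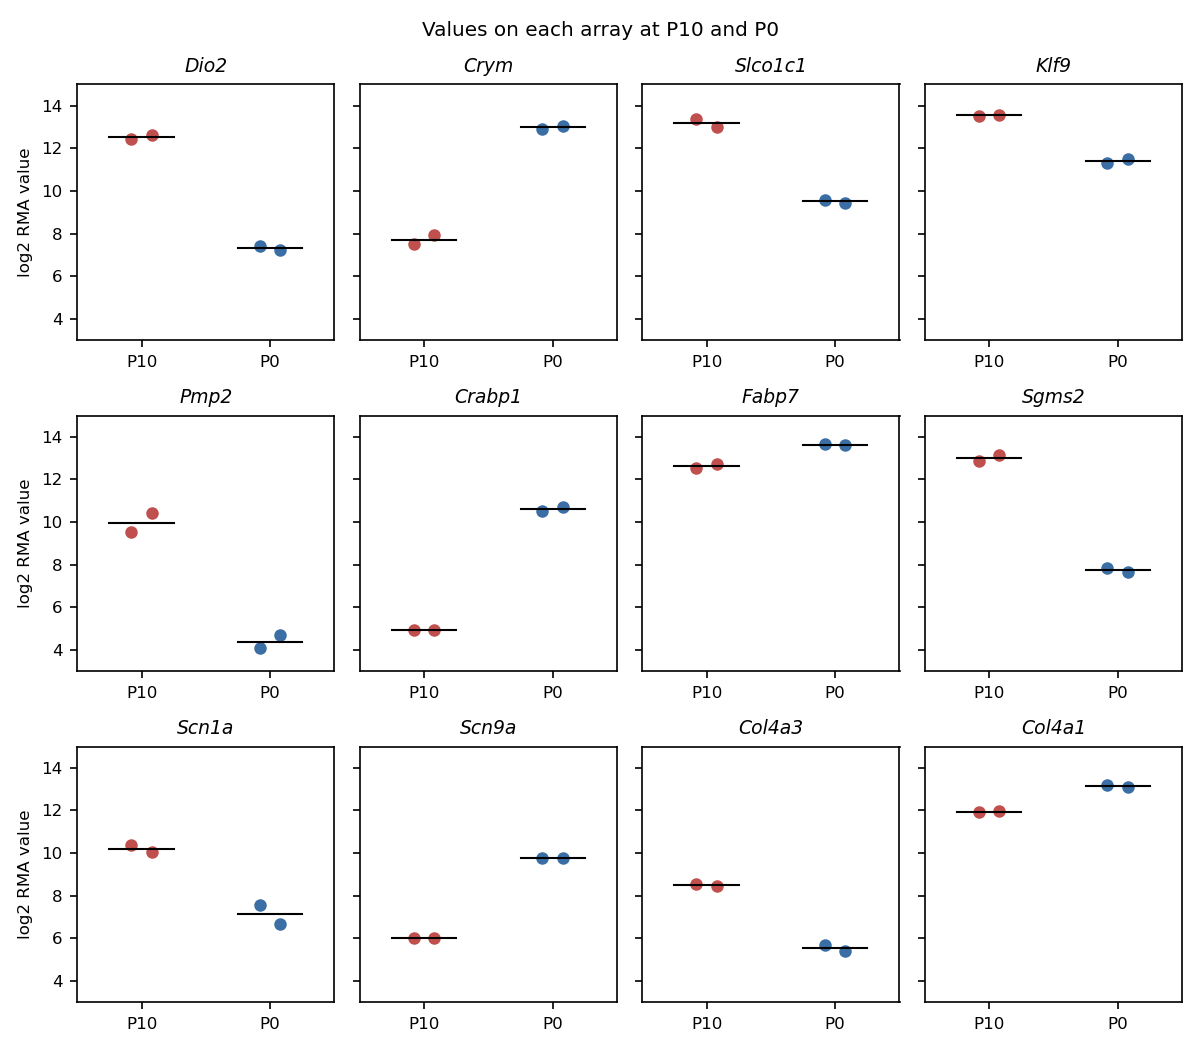
Log2 RMA values (vertical axis) of 12 genes on the 2 arrays of P10 (red, left) and the 2 of P0 (blue, right), with a line at each mean. In every panel the stages do not overlap, which holds for every called gene. Dio2 has 12.43 and 12.63 at P10, against 7.45 and 7.23 at P0. Crym has 7.50 and 7.93 at P10, against 12.91 and 13.07 at P0.

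Retinoid genes changed in both directions. Of the carriers that hold retinoic acid in the cytosol, Crabp1 had 4.96 and 4.94 at P10, against 10.52 and 10.70 at P0 (at least 45.1-fold lower, P10 dim, adjusted p = 1.57e-06) and Crabp2 fell 2.6-fold. Cyp26b1, which degrades retinoic acid, fell 6.13-fold. Aldh1a1, which makes it, had 11.53 and 11.64 at P10, against 8.96 and 9.45 at P0 (5.21-fold higher, adjusted p = 9.45e-06), Aldh1a3, of the same function, rose 1.84-fold, and the related Aldh1a7 fell 3.03-fold. Rarres1, named for its response to retinoic acid receptors, had 11.40 and 11.16 at P10, against 6.02 and 6.57 at P0 (31.7-fold higher). The nuclear receptors Rxrg (difference −1.0) and Rarb (−0.72) were lower. Of 34 genes of retinoid and thyroid hormone handling 12 were higher and 8 lower, with a median of −0.16, so the list moved in both directions.

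The same holds within 1 protein family, the small carriers of fatty acids and retinoids to which the Crabp proteins belong. Of 14 measured members 4 were higher and 3 lower. Pmp2, the fatty acid carrier of peripheral myelin, had 9.52 and 10.41 at P10, against 4.09 and 4.71 at P0. With P0 dim, it rose at least 29.3-fold. Rbp7, a retinol carrier, had 9.51 and 9.83 at P10, against 6.03 and 6.45 at P0 (10.8-fold, adjusted p = 0.000437), and Fabp3, the carrier of heart and other tissues, had 12.12 and 12.03 at P10, against 9.71 and 9.70 at P0 (5.17-fold, adjusted p = 4.37e-06). Fabp7, the carrier of radial glia and young Schwann cells, was bright at both stages, with 12.54 and 12.71 at P10, against 13.65 and 13.60 at P0 (2-fold lower, adjusted p = 0.00159). Fabp4, of capillaries and fat cells, rose 3.64-fold, but lost the call without P0 replicate 2 (adjusted p = 0.165), P10 replicate 1 (0.121) or P10 replicate 2 (0.0724). Fabp5, of glia and epidermis, had 12.48 and 12.52 at P10, against 12.95 and 12.75 at P0 and was not called (−0.35, adjusted p = 0.0809). The other 6 uncalled members, carriers of gut, testis and other tissues, had differences between −0.24 and 0.02.

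Myelin genes rose together. In the peripheral myelin list 17 of 18 genes were higher and 0 lower, with a median of 2.16, and the count stayed at 17 whichever array was left out. Ncmap, a protein of non-compact myelin, had 12.72 and 12.62 at P10, against 8.74 and 9.03 at P0 (13.8-fold, adjusted p = 6.85e-07), Gjb1, the connexin of Schwann cell incisures, rose 7.26-fold, Cldn19, the claudin of Schwann cell junctions, rose 4.61-fold, and Drp2, which ties the outer myelin surface to the basal lamina, rose 4.44-fold. The enzymes of myelin lipids followed. Sgms2, which makes sphingomyelin, had 12.85 and 13.14 at P10, against 7.87 and 7.67 at P0 (5.23 ± 0.285 SE, 37.4-fold, adjusted p = 2.25e-06), Fa2h, which hydroxylates the fatty acids of myelin galactolipids, had 10.91 and 10.71 at P10, against 6.67 and 6.52 at P0 (18.6-fold), Ugt8a, which makes galactocerebroside, rose 5.62-fold, and Gal3st1, which turns it into sulfatide, rose 2.26-fold. For Sgms2 and Fa2h both mice of P10 lay over 3 log2 units above both of P0. The cells that carried the Sgms2 RNA were not identified, and the part of bone in its rise was not tested.

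Of 24 myelin lipid genes 12 were higher and 1 lower (median 0.74). The lower one was Fasn, the synthase of palmitate, with 10.19 and 10.11 at P10, against 11.02 and 10.90 at P0 (1.75-fold lower, adjusted p = 0.000304), while the desaturase Scd1 rose 3.41-fold and the elongases Elovl7 and Elovl1 rose 4.48-fold and 2.13-fold. Smpd3, a sphingomyelinase that rose 9.95-fold, is also on the bone list, and Pllp, a membrane protein of myelin that rose 16-fold, is no enzyme. Cholesterol synthesis changed less: 5 of 20 genes were higher (median 0.34), none of them 2-fold, with Msmo1 at 0.89 and Hmgcs1, the synthase that opens the pathway, at 0.70. No member was lower, but 1 was without P0 replicate 2 or without P10 replicate 1.

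Schwann cell transcription factors changed in both directions. Pou3f1, of promyelinating cells, had 10.55 and 10.59 at P10, against 7.23 and 7.69 at P0 (8.63-fold higher, adjusted p = 1.66e-06), and Egr2, which switches myelin genes on, had 11.45 and 11.35 at P10, against 9.58 and 9.55 at P0 (3.57-fold higher, adjusted p = 2.05e-05). Among the lower ones were Sox2, of precursor and immature cells, with 10.89 and 11.15 at P10, against 12.19 and 12.17 at P0 (2.23-fold, adjusted p = 0.000456), Etv5 (2.25-fold), Foxd3 (1.78-fold), Nfatc4 (3.56-fold), which works with Sox10, and Sox5 (2.94-fold), which also acts in cartilage. In all 5 of 25 were higher and 6 lower, against 11.0% and 13.5% of all genes. The higher ones numbered 2 without P0 replicate 1 and 3 without P0 replicate 2.

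Glial genes of the central nervous system, whose cells myelinate the nerve near the brainstem, rose with these: 14 of 19 oligodendrocyte genes (median 2.22) and 10 of 18 astrocyte genes (median 0.90) were higher, and 1 of each list was lower. The lower oligodendrocyte gene was not called without P0 replicate 1 or either P10 array. Log2 of the summed oligodendrocyte levels was 15.82 and 15.55 at P10, against 14.46 and 14.37 at P0, and that of the astrocyte levels was 15.74 and 15.53 at P10, against 14.65 and 14.56 at P0. Ugt8a and S100b stand on these lists as well as on those of peripheral myelin or its lipids, and how much of the central lists lay within the dissected piece was not tested.

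Sodium channel subunits rose and fell in equal number: of 15 genes 6 were higher and 6 lower, and 12 called genes of 15 compares with 24.4% of all genes. Scn1a, the alpha subunit of mature fast-firing neurons, had 10.37 and 10.03 at P10, against 7.59 and 6.66 at P0 (8.43-fold higher, adjusted p = 6.29e-05). Scn8a, the alpha subunit of mature nodes of Ranvier, had 10.15 and 9.70 at P10, against 7.73 and 7.11 at P0 (5.68-fold higher, adjusted p = 0.000258). Scn9a, of sensory and sympathetic neurons, had 6.02 and 6.0 at P10, against 9.79 and 9.76 at P0 (−3.77 ± 0.147 SE, 13.6-fold lower, adjusted p = 3.16e-07), with all 5 of its probe sets called lower. Scn3a, the embryonic alpha subunit, had 6.37 and 6.07 at P10, against 8.85 and 8.36 at P0 (5.22-fold lower), Scn11a, of sensory ganglia, fell 5.13-fold, and Scn2a, of unmyelinated axons, fell 2.17-fold. Of the beta subunits Scn4b rose 10.8-fold and Scn3b fell 2-fold, and of the cytosolic partners of the channels Fgf12 rose 5.31-fold. Scn7a, a sodium sensor of glia and sensory neurons, rose 6.36-fold. No pair of stages overlapped for any of these subunits, which holds for every called gene and for 71.1% of all genes.

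**Figure D3:**
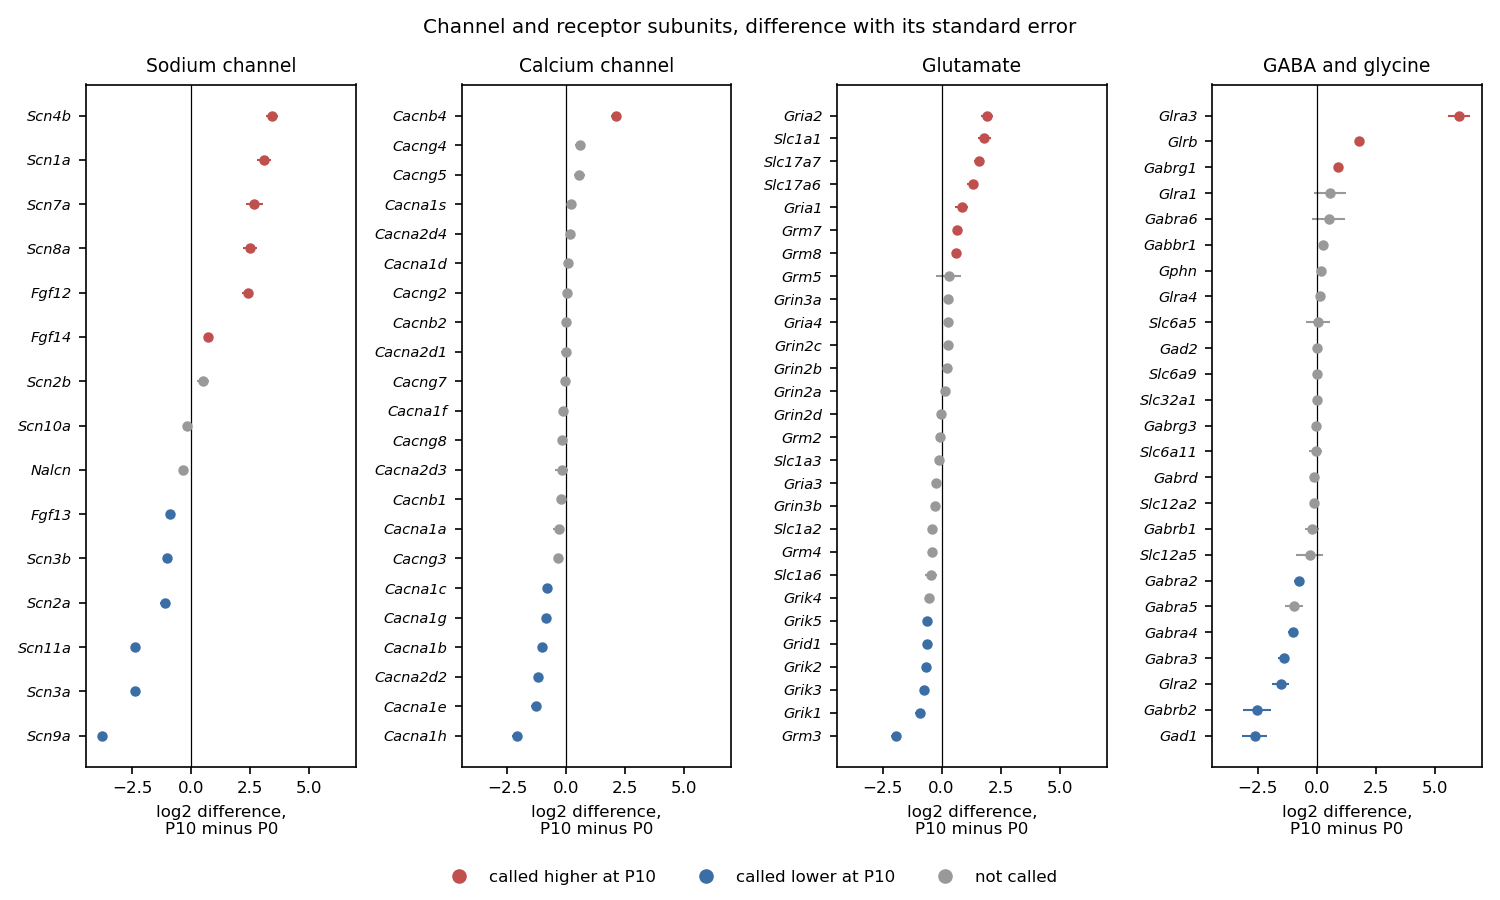
Log2 difference, P10 minus P0, with its standard error (horizontal axis) for each measured gene of 4 families: sodium channels, calcium channels, glutamate receptors and transporters, and GABA and glycine signalling. Red points were called higher at P10, blue lower, and grey were not called. The sodium panel has 6 genes on each side, and the calcium panel has 1 higher and 6 lower.

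Potassium channels rose more often than they fell, with 24 of 75 higher and 8 lower, or 5 lower without P0 replicate 1, P0 replicate 2 or P10 replicate 1. Kcnc1, whose fast opening and closing permits high firing rates, had 10.51 and 10.46 at P10, against 7.46 and 6.98 at P0 (9.61-fold, adjusted p = 1.08e-05). Kcnma1, the large calcium-activated channel, rose 10.3-fold, and Kcnip1, a partner of transient potassium channels, rose 11.6-fold. Kcnj16, an inward rectifier of glia and fibrocytes, rose 6.04-fold. Calcium channels were more often lower than higher. Cacna1h, which opens at low voltage, had 6.14 and 6.62 at P10, against 8.59 and 8.35 at P0 (4.26-fold lower, adjusted p = 7.3e-05), Cacna1g, of the same class, fell 1.8-fold, and Cacna1e and Cacna1b, of the classes that open at higher voltage, fell 2.45-fold and 2.03-fold. Only Cacnb4, an accessory beta subunit, was higher, with 10.85 and 10.53 at P10, against 8.60 and 8.60 at P0 (4.26-fold, adjusted p = 3.96e-05). Of 22 calcium channel genes 1 was higher and 6 lower, against 11.0% and 13.5% of all genes. The higher ones were 2 when any array of P3 or P21 was dropped.

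At the node and paranode, where axon and Schwann cell meet, 10 of 25 genes were higher and 2 lower (4 without P10 replicate 1). Bcan, a proteoglycan of perinodal matrix, had 10.45 and 10.61 at P10, against 8.68 and 8.82 at P0 (3.43-fold higher), and Vcan, a related proteoglycan abundant in fetal matrix, had 8.39 and 7.86 at P10, against 11.28 and 11.01 at P0 (8.11-fold lower, adjusted p = 3.33e-05). Lgi3, a secreted protein of axon and glia contacts, rose 9.71-fold, and Sptbn4, the spectrin of nodes, rose 2.52-fold.

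Of 28 glutamate genes 7 were higher and 6 lower, against 11.0% and 13.5% of all genes. Gria2, the AMPA receptor subunit that limits calcium entry, had 9.27 and 8.69 at P10, against 7.32 and 6.81 at P0 (3.77-fold higher, adjusted p = 0.000514), and the vesicular glutamate transporters Slc17a7 and Slc17a6 rose 3.01-fold and 2.48-fold. Grm3, a metabotropic receptor, had 5.70 and 5.57 at P10, against 7.64 and 7.47 at P0 (3.78-fold lower, adjusted p = 0.000164). The kainate receptor subunits Grik1 (−0.91), Grik3 (−0.74), Grik2 (−0.67) and Grik5 (−0.60) were lower by small amounts, and each lost its call without at least 1 array: Grik1 without P0 replicate 2 (adjusted p = 0.0504) or P10 replicate 2 (0.053), Grik3 without P10 replicate 1 (0.0658), Grik2 without P0 replicate 1 (0.113), P10 replicate 1 (0.0627) or P10 replicate 2 (0.0891), and Grik5, by its size, without P0 replicate 2 (difference −0.56) or P10 replicate 2 (−0.57). On the mean of a gene's probe sets Grik1, Grik2 and Grik3 were not called. The list as a whole had 4 higher without P0 replicate 2 or either P10 array, and 3, 3 and 2 lower without P0 replicate 2, P10 replicate 1 and P10 replicate 2.

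Among genes of inhibitory signalling 2 glycine receptor subunits rose, and Gad1 and Gabra3 fell. Glra3, an alpha subunit of the glycine receptor, had 11.07 and 10.23 at P10, against 4.69 and 4.59 at P0 (P0 dim, at least 47.2-fold higher, adjusted p = 1.56e-05), and Glrb, the beta subunit, had 12.14 and 11.85 at P10, against 10.09 and 10.31 at P0 (3.47-fold higher, adjusted p = 8.77e-05). Only 1 of the 2 probe sets of Glra3 was called. Gad1, which makes GABA, had 6.67 and 5.88 at P10, against 8.62 and 9.20 at P0 (6.21-fold lower, adjusted p = 0.00462), and Gabra3, a GABA receptor subunit, fell 2.66-fold. In the list 3 of 25 genes were higher and 6 lower, against 11.0% and 13.5% of all genes, and 3 were lower without P0 replicate 1. Among ATP-gated channels P2rx3, of sensory ganglia, had 6.48 and 7.58 at P10, against 10.45 and 10.25 at P0 (9.99-fold lower, adjusted p = 3.85e-05), whereas P2rx2, its partner in mixed channels, had 8.58 and 8.20 at P10, against 5.76 and 6.34 at P0 (5.06-fold higher, adjusted p = 0.000295). For P2rx3 2 of 3 probe sets were called lower. In the list of purine and acetylcholine receptors 6 of 25 were higher and 2 lower, beside the same shares of all genes, and 1 was lower without P0 replicate 2.

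Among genes of vesicle release, some related genes differed in direction. Vamp1, the synaptobrevin prevalent in spinal cord and brainstem, had 11.17 and 11.01 at P10, against 6.72 and 6.72 at P0 (20.7-fold higher, adjusted p = 2.71e-06), Syt2, a fast calcium sensor, had 9.38 and 9.45 at P10, against 7.30 and 7.02 at P0 (4.77-fold higher, adjusted p = 0.000172), and Cplx1, a complexin, had 12.93 and 12.86 at P10, against 11.43 and 11.29 at P0 (2.9-fold higher). Syt1, the sensor of forebrain synapses, had 8.68 and 9.39 at P10, against 10.83 and 10.97 at P0 (3.64-fold lower, adjusted p = 0.00577), with all 4 probe sets called lower, although the representing one was not called without P10 replicate 1 (−1.51, adjusted p = 0.0605). Synpr, a vesicle protein related to synaptophysin, fell 7.92-fold, while Syp, synaptophysin itself, rose 2.48-fold. Stx1a, a syntaxin of the release complex, fell 2.04-fold. In all 9 of 40 were higher and 7 lower, against 11.0% and 13.5% of all genes.

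Neuronal transcription factors were more often lower than higher. Bcl11b, a zinc finger factor of projection neurons, had 6.96 and 7.23 at P10, against 10.01 and 10.0 at P0 (7.52-fold lower, adjusted p = 2.47e-06), and Sox11 had 10.13 and 10.24 at P10, against 12.78 and 13.01 at P0 (6.54-fold lower, adjusted p = 3.15e-06). The zinc finger factor Insm1 and the helix-loop-helix factor Nhlh2, both of newborn neurons, fell at least 3.59-fold and at least 2.05-fold, and the related Bcl11a 3.04-fold. Of 52 neuronal transcription factors 3 were higher and 15 lower, against 11.0% and 13.5% of all genes. The higher ones were 1 without P0 replicate 2 or P10 replicate 1. St18, a zinc finger factor of neurons and oligodendrocytes, was higher (at least 2.35-fold). The cytoskeleton was split, with 10 of 43 higher and 14 lower. Map1a, a microtubule protein of mature axons, rose 3.77-fold and Tppp, a tubulin-binding protein of myelinating glia, rose 3.54-fold. Tubb2b, a tubulin of young neurons, had 11.01 and 11.39 at P10, against 12.68 and 12.57 at P0 (2.69-fold lower), Crmp1, which relays guidance signals, fell 3.26-fold and Mapt, tau, fell 3.4-fold.

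Guidance and adhesion genes were more often lower than higher. Of 73 guidance ligands and receptors 27 were lower and 7 higher (median −0.42), against 13.5% and 11.0% of all genes. Robo2, a receptor of Slit repellents, had 5.42 and 4.89 at P10, against 7.29 and 7.26 at P0 (4.35-fold lower, adjusted p = 0.00104), and Robo1 fell 2.53-fold. The Eph receptors Epha7 and Epha4 fell 3.23-fold and 2.85-fold, and the semaphorins Sema4f and Sema3c 4.08-fold and 3.16-fold. The higher ones included Ntn4, a netrin of basal laminae, with 10.56 and 10.53 at P10, against 7.86 and 8.06 at P0 (6-fold, adjusted p = 4.43e-06), Sema3b (4.06-fold) and Sema7a (4-fold). Among cadherins and protocadherins, 16 of 39 were lower and 2 higher (1 without P10 replicate 1). Cdh4, a classical cadherin of retinal and other axons, had 7.60 and 7.68 at P10, against 10.99 and 11.08 at P0 (10.5-fold lower, adjusted p = 1.04e-05, 2 of 3 probe sets called lower), Celsr1, a planar polarity cadherin, fell 7.94-fold, Pcdh8 fell 5.39-fold, and Pcdh19 fell 3.78-fold. Cdh9, a classical cadherin, was the larger of the 2 rises, with 9.94 and 9.41 at P10, against 7.64 and 7.51 at P0 (4.29-fold).

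**Figure D4:**
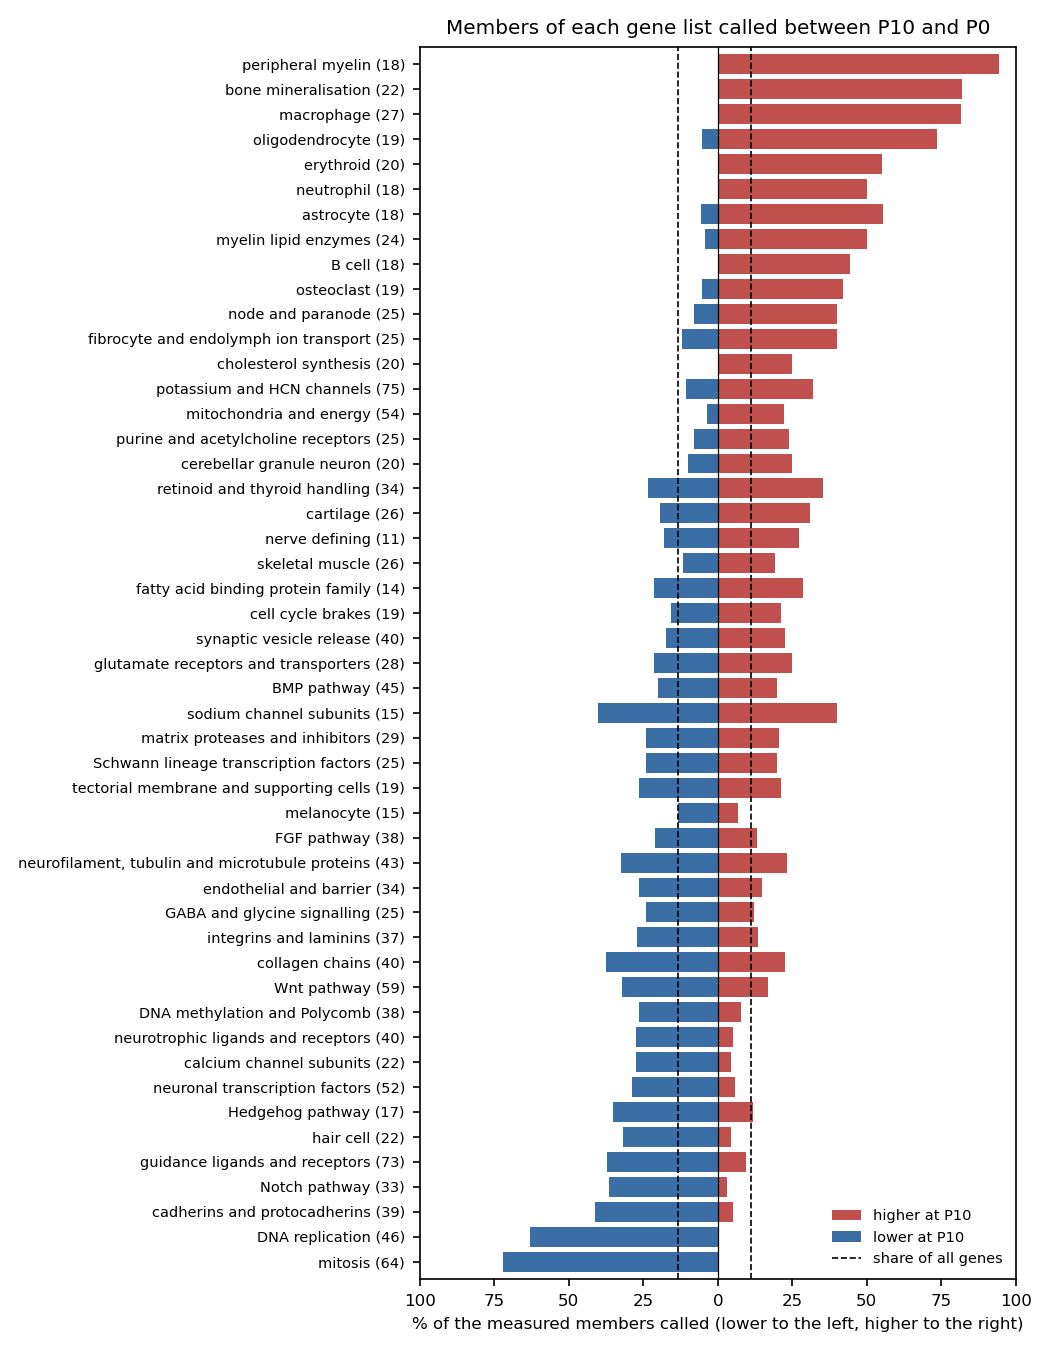
Share of the measured members of each of 49 gene lists called higher (red, to the right) and lower (blue, to the left) at P10, in percent, with the number measured in brackets and dashed lines at the shares over all genes (11.0% higher, 13.5% lower). Lists at the top have members called almost only higher, such as 17 of 18 for peripheral myelin, and those at the foot almost only lower, such as 46 of 64 for mitosis.

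Notch, Hedgehog and Wnt genes were more often lower than higher, as were all genes (13.5% lower and 11.0% higher). In the Notch pathway 12 of 33 were lower and 1 higher, the one being Dner, a neuronal ligand (2.23-fold). In the Hedgehog pathway 6 of 17 were lower, among them the transcription factor Gli3 (3.05-fold) and the coreceptor Cdon (2.2-fold), and 2 were higher. In the Wnt pathway 19 of 59 were lower and 10 higher. Lef1, a factor that carries Wnt signals to genes, had 9.41 and 9.60 at P10, against 11.25 and 11.30 at P0 (3.41-fold lower, adjusted p = 6.37e-05), and Axin2, which Wnt signals induce, fell 2.46-fold.

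Secreted Wnt inhibitors changed in opposite directions. Sfrp1 had 9.76 and 9.85 at P10, against 12.28 and 12.57 at P0 (6.15-fold lower, adjusted p = 6.52e-06), with all 5 of its probe sets lower. Sfrp4 rose 10.2-fold, Sfrp5 rose 4.84-fold and Dkk1 rose 9.99-fold. Sost, which is not part of the Wnt counts, rose 17-fold. Dkk1 and Sost are also products of bone cells and stand on the bone list, of which 18 of 22 genes were higher. The part of bone in the Wnt counts was not tested. The BMP and TGF-beta list had 9 of 45 higher and 9 lower, against 11.0% and 13.5% of all genes, with Bmp6 4.32-fold higher, and Tgfb2 2.41-fold and the antagonist Fst 3.48-fold lower.

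In the FGF and neurotrophic lists the largest rises were those of Fgf1 and Igfbp6. Fgf1, a fibroblast growth factor of adult sensory and motor neurons, had 11.76 and 11.46 at P10, against 7.45 and 7.41 at P0 (4.18 ± 0.176 SE, 18.1-fold, adjusted p = 5.86e-07), with its 3 probe sets higher. Igfbp6, which binds insulin-like growth factors, had 10.81 and 10.78 at P10, against 7.32 and 7.05 at P0 (12.2-fold, adjusted p = 9.79e-06). Both mice of P10 lay over 3 log2 units above both of P0 for each. The FGF list had 5 of 38 higher and 8 lower, against 11.0% and 13.5% of all genes, Il17rd, an inhibitor of FGF signals, falling 2.88-fold and Fgfr4, a receptor, 2.62-fold. Of 40 neurotrophic ligands and receptors 2 were higher and 11 lower. Gfra2, the neurturin receptor, had 8.23 and 8.39 at P10, against 10.75 and 10.50 at P0 (4.98-fold lower, adjusted p = 0.00018), and Adgrg6, an adhesion receptor required in mice to begin myelination, had 9.23 and 9.21 at P10, against 11.20 and 11.23 at P0 (3.99-fold lower, adjusted p = 7.76e-05). Erbb2, the coreceptor of neuregulin in Schwann cells, fell 2-fold. Ntrk3, the neurotrophin receptor on which most spiral ganglion neurons depend, had 8.87 and 8.51 at P10, against 9.27 and 8.94 at P0 and was not called (−0.42, adjusted p = 0.388). Ntrk2, the receptor of brain-derived neurotrophic factor, had 9.89 and 9.86 at P10, against 10.67 and 10.48 at P0 and was just short of a call (−0.70, adjusted p = 0.0503), which it gained without either P21 array (adjusted p = 0.00912). It was also called lower with the 4 arrays alone, array weights, an intensity trend, a shift to one median, a filter on dim probe sets and the unadjusted t-test of the study's methods.

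Cell division genes were lower as a body. Of 64 mitosis genes 46 were lower and 0 higher (median −1.47), and of 46 DNA replication genes 29 were lower and 0 higher (median −1.06). These counts depended on single arrays. Without P0 replicate 1, P10 replicate 1 or P10 replicate 2 the mitosis genes called lower were 13, 12 and 29, and without P0 replicate 1 or P10 replicate 1 the replication genes were 19. Kif2c, a kinesin that depolymerises microtubules, had 6.87 and 7.11 at P10, against 9.54 and 9.28 at P0 (5.35-fold lower, adjusted p = 0.00232), and Racgap1, which acts in cytokinesis, fell 4.98-fold. Dtl, a licensing control factor, fell 4.96-fold, and Mcm6 and Mcm3, subunits of the replicative helicase, fell 4.06-fold and 3.61-fold. Top2a, the topoisomerase of dividing cells, averaged 10.82 at P0, 9.55 at P3, 9.09 at P7, 8.72 at P10, 9.18 at P14 and 7.42 at P21, so its lowest mean was at P21.

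Promoters of mitosis genes are known for a CHR element (cell cycle genes homology region), TTTGAA, that works together with CCAAT boxes upstream. Windows of 300 bases, 250 before and 50 after the start, from RefSeq on GRCm38.p6, were searched on both strands. TTTGAA or its complement lay in 69.8% of the 53 mitosis genes with a window, in 16.2% of the 37 replication genes with one and in 20.2% of all 27025 genes with one. CCAAT lay in 69.8%, 62.2% and 41.1% of the same genes in that order, and both motifs in 58.5%, 13.5% and 7.97%. A match is a run of letters and not a measured site. The 250 bases before the start are shown, with matches to both motifs on either strand in capitals, for the 3 called mitosis genes with both motifs there and the largest falls, on chromosomes 11 (99024190 to 99024439, minus strand), 19 (37376132 to 37376381, plus strand) and 4 (118437344 to 118437593, minus strand) for Top2a, Kif11 and Cdc20. The choice left out the genes of another chromosome, so any larger falls there are not shown.
Top2a: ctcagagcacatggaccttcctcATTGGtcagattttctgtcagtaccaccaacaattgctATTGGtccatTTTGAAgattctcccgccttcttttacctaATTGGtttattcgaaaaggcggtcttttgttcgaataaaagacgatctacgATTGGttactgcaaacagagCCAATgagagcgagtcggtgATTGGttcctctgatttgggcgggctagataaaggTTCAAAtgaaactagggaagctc
Kif11: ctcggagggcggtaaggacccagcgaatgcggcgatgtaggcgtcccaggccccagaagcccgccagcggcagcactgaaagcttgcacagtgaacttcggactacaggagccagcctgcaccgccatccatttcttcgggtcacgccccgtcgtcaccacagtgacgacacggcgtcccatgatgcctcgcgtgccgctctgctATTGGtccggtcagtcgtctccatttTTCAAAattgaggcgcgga
Cdc20: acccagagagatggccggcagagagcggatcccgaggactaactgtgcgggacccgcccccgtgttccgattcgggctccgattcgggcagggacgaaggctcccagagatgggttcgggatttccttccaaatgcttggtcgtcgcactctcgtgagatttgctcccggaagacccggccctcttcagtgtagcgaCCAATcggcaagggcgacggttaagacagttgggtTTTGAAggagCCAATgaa

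On the arrays Top2a had 8.78 and 8.66 at P10, against 10.86 and 10.77 at P0 (4.27-fold lower, adjusted p = 0.0105). Kif11, the motor that separates spindle poles, had 7.33 and 7.33 at P10, against 9.56 and 9.21 at P0 (4.16-fold lower, adjusted p = 0.00891), and Cdc20, the activator of the anaphase complex, had 9.46 and 9.74 at P10, against 11.28 and 11.02 at P0 (2.93-fold lower, adjusted p = 0.0132). All 3 were lower in both P10 mice than in either P0 mouse, and no called gene had stages that overlapped. Their calls were lost without P0 replicate 1 (adjusted p = 0.0584, 0.0636 and 0.0825 for Top2a, Kif11 and Cdc20) and without P10 replicate 1 (0.0523, 0.052 and 0.0898), and that of Top2a also without P10 replicate 2 (0.0547), while the differences stayed between −1.41 and −2.15.

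Some chromatin and growth regulators of fetal cells were lower as well, though most of their list was not called. Hmga2, a chromatin protein of fetal stem and progenitor cells, had 6.33 and 6.45 at P10, against 9.91 and 10.18 at P0 (−3.66 ± 0.228 SE, 12.6-fold lower, adjusted p = 4.66e-06), and Igf2bp3, a fetal RNA-binding protein placed beside it in the list, had 6.74 and 7.09 at P10, against 10.13 and 10.07 at P0 (9.09-fold lower, adjusted p = 4.22e-06). All 4 probe sets of Hmga2 and all 6 of Igf2bp3 were lower. The maintenance methyltransferase Dnmt1 fell 2.32-fold, its partner Uhrf1 fell 4.11-fold and the de novo methyltransferase Dnmt3b fell 1.97-fold. Of the 38 genes of the DNA methylation and Polycomb list 10 were lower and 3 higher, against 13.5% and 11.0% of all genes. The other 25 were not called, and the median was −0.16. Brakes on the cell cycle were mixed, 4 of 19 higher and 3 lower, against 11.0% and 13.5% of all genes. Cdkn1a, an inhibitor that stress induces, had 12.30 and 12.44 at P10, against 10.94 and 11.05 at P0 (2.59-fold higher), and Gadd45a, of stress and growth arrest, rose 3.14-fold. Cdkn1c, an inhibitor of fetal tissue, had 10.42 and 10.82 at P10, against 12.47 and 12.39 at P0 (3.51-fold lower, adjusted p = 5.17e-05).

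The collagen IV chains of basal laminae moved in pairs, one pair up and another down. Col4a3 had 8.57 and 8.47 at P10, against 5.67 and 5.42 at P0 (7.86-fold higher, adjusted p = 1.31e-05), and its partner Col4a4 had 10.44 and 10.20 at P10, against 7.03 and 7.29 at P0 (8.94-fold higher, adjusted p = 6.85e-07). Col4a1 had 11.94 and 11.96 at P10, against 13.18 and 13.11 at P0 (2.29-fold lower, adjusted p = 0.00117), and its partner Col4a2 had 10.45 and 10.52 at P10, against 11.81 and 11.68 at P0 (2.39-fold lower, adjusted p = 0.00203). Mice of a stage differed by under 1 log2 unit for all 4, and no stages overlapped, which holds for every called gene. The remaining pair, Col4a5 (−0.11, adjusted p = 0.656) and Col4a6 (−0.20, adjusted p = 0.403), was not called. The members of a pair lie head to head: in the RefSeq annotation of GRCm38.p6 Col4a4 spans 82448419 to 82587034 and Col4a3 82586921 to 82722059 on chromosome 1, and Col4a1 spans 11198423 to 11312889 and Col4a2 11312805 to 11449287 on chromosome 8. The spans of the neighbours overlap at their starts, and the 2 chains of a pair changed in the same direction.

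Of 40 collagen chains 9 were higher and 15 lower. Col22a1, of tissue junctions, rose 15.1-fold and Col24a1, a fibrillar chain of bone, rose 5.66-fold, while Col6a3, of endoneurium and other connective tissue, had 9.79 and 9.64 at P10, against 12.25 and 12.12 at P0 (5.54-fold lower) and Col18a1, of basal laminae, fell 5.48-fold. In the integrin and laminin list 5 of 37 were higher (3 without P0 replicate 2) and 10 lower (6 without P10 replicate 1), with Nid2, which links laminin and collagen IV, 3.4-fold lower and Itga10, an integrin of cartilage, 7.26-fold higher. Of the matrix proteases and inhibitors 6 of 29 were higher and 7 lower (4 without P10 replicate 1). Mmp13, a collagenase of bone and cartilage, had 8.82 and 9.33 at P10, against 5.18 and 3.99 at P0 (22.5-fold higher, adjusted p = 0.00155, 1 P0 array dim and 15.2-fold with it raised to its 25th percentile), and Timp4, an inhibitor, rose 6.43-fold. Adamts20, a protease that cleaves versican, fell 5.6-fold.

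Lists of other cells that the dissected tissue may hold were counted in the same way. Of 22 bone mineralisation genes 18 were higher and 0 lower (median 3.31), and log2 of their summed levels was 16.42 and 16.42 at P10, against 14.59 and 14.50 at P0. Sp7, the osteoblast transcription factor, was 9.92-fold higher, and Omd, of mineralised matrix, 15-fold. Of 19 osteoclast genes 8 were higher and 1 lower (14.71 and 14.75 at P10, against 13.67 and 13.63 at P0). Acp5, the acid phosphatase of osteoclasts, had 10.51 and 10.95 at P10, against 6.47 and 4.82 at P0 (33.9-fold higher, adjusted p = 0.00042), with P0 mice over 1 log2 unit apart and 1 of them dim (30.6-fold with that array raised to its 25th percentile). Cartilage genes were 8 of 26 higher and 5 lower, and their summed levels hardly differed (16.39 and 16.37 at P10, against 16.31 and 16.36 at P0). Matn4, a matrilin, fell 5.05-fold, and Ucma, of mineralising cartilage, rose 14.6-fold.

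Epithelial and fibrocyte genes followed different courses. Of 22 hair cell genes 1 was higher (2 without P0 replicate 1) and 7 lower (13.82 and 13.76 at P10, against 13.65 and 13.78 at P0), Atoh1, which specifies hair cells, with 5.29 and 5.22 at P10, against 8.76 and 8.89 at P0 (11.9-fold lower), and Rasd2, a small GTPase, 9.55-fold lower. Of 19 genes of the tectorial membrane and supporting cells 4 were higher and 5 lower (16.11 and 16.27 at P10, against 16.25 and 16.38 at P0). Of 25 fibrocyte and ion transport genes 10 were higher and 3 lower (16.73 and 16.62 at P10, against 15.80 and 15.89 at P0). Slc13a3, a dicarboxylate carrier, rose 9.38-fold, and Coch, an abundant protein of cochlear fibrocytes, rose 3.38-fold. In the melanocyte list 1 of 15 was higher and 2 lower, against 11.0% and 13.5% of all genes (summed levels 13.15 and 12.77 at P10, against 13.93 and 13.93 at P0). The lower ones were 1 without P0 replicate 2 or either P10 array and 5 without either P3 array. In the cerebellar granule neuron list, a check for brainstem or cerebellar tissue, 5 of 20 were higher and 2 lower (14.23 and 14.13 at P10, against 13.89 and 13.88 at P0), with 3 higher without P0 replicate 2 or either P10 array.

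Vessel genes rose and fell, with transporters of the barrier among the rises. Of 34 endothelial genes 5 were higher and 9 lower, against 11.0% and 13.5% of all genes. The lower ones were 5 without P0 replicate 1 or P10 replicate 1, and the summed levels differed little (15.16 and 15.05 at P10, against 14.99 and 14.99 at P0). Slco1a4, an organic anion transporter of brain capillaries, had 9.94 and 9.32 at P10, against 7.39 and 7.14 at P0 (5.15-fold higher, adjusted p = 0.000242), and Mfsd2a, which carries docosahexaenoic acid and marks the barrier, had 9.87 and 9.68 at P10, against 8.48 and 8.57 at P0 (2.38-fold higher, adjusted p = 0.000283). Lyve1, of lymphatic vessels and some macrophages, fell 3.01-fold.

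In 4 lists of blood and immune cells members were called higher and none lower. Of 27 macrophage genes 22 were higher and 0 lower (14.77 and 14.65 at P10, against 13.34 and 13.21 at P0). P2ry12 and Tmem119, taken here as markers of resident microglia-like cells, rose 3.86-fold and 2.87-fold. The cells that carried their RNA were not identified. Of 18 neutrophil genes 9 were higher and 0 lower (14.50 and 13.64 at P10, against 11.35 and 10.91 at P0), with 5 higher when P10 replicate 1 was dropped and 14 when either P14 array was. P10 replicate 1 had the higher summed level of the 2 mice. Of 20 erythroid genes 11 were higher and 0 lower (13.43 and 13.27 at P10, against 11.76 and 11.96 at P0), with 4 without P0 replicate 1 and 7 without either P10 array. Hemgn, of red cell precursors, was 14.9-fold higher. Of 18 B cell genes 8 were higher and 0 lower (12.46 and 12.39 at P10, against 11.90 and 12.10 at P0), with 4 higher without P10 replicate 1 and 1 lower without P0 replicate 1 or P10 replicate 2. Skeletal muscle genes were 5 of 26 higher and 3 lower, against 11.0% and 13.5% of all genes (summed levels 12.37 and 12.37 at P10, against 11.07 and 11.80 at P0). The higher ones were 3 without P0 replicate 1 or either P10 array. The lower ones were 7 without P0 replicate 1, 1 without P0 replicate 2, 0 without P10 replicate 1 and 1 without P10 replicate 2. Of the members of these lists that define bone, osteoclast and blood cells, at most 3 in a list were dim at both stages. The part of these cells in the changes of nerve genes was not tested.

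Energy genes were more often higher than lower. Of 54 genes of mitochondria and energy supply 12 were higher and 2 lower (median 0.36), against 11.0% and 13.5% of all genes, and 40 were not called. Cox8b, a cytochrome oxidase subunit of heart, muscle and brown fat, had 10.48 and 9.38 at P10, against 5.60 and 6.16 at P0 (16.6-fold higher, adjusted p = 4.57e-05). Ckmt1, the mitochondrial creatine kinase of brain, had 11.01 and 10.62 at P10, against 8.69 and 8.05 at P0 (5.45-fold higher, adjusted p = 7.82e-05), and Ppargc1a, a coactivator that raises mitochondrial genes, rose 2.66-fold. The 2 lower genes were enzymes of glycolysis, Hk2, a hexokinase, with 8.50 and 8.51 at P10, against 9.48 and 9.26 at P0 (1.82-fold lower), and Ldha, lactate dehydrogenase, with 11.70 and 11.60 at P10, against 12.48 and 12.45 at P0 (1.76-fold lower). Every P10 mouse lay on the far side of both P0 mice for these 5 genes, as for every called gene.

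The stages between and after place these changes in time, as a description, since every stage is set against the same P0 mice. The median of the peripheral myelin list above P0 was 0.70 at P3, 2.0 at P7, 2.16 at P10, 2.08 at P14 and 1.88 at P21, and that of the bone list was 0.68 at P3, 3.37 at P7, 3.31 at P10, 2.77 at P14 and 1.87 at P21, so at P7 the myelin median was just below and the bone median just above that of P10. The neutrophil list had 0.34 at P3, 0.75 at P7, 2.02 at P10, 2.88 at P14 and 1.65 at P21, and the oligodendrocyte list had 0.11 at P3, 1.31 at P7, 2.22 at P10, 1.77 at P14 and 1.64 at P21. Mitosis genes had −0.76 at P3, −1.16 at P7, −1.47 at P10, −1.20 at P14 and −2.13 at P21. Several single genes passed a high or low point near P10. Dio2 averaged 7.34 at P0, 10.22 at P3, 12.84 at P7, 12.53 at P10, 11.89 at P14 and 10.63 at P21, Pmp2 4.40 at P0, 8.71 at P3, 10.36 at P7, 9.97 at P10, 8.57 at P14 and 6.64 at P21 and Rarres1 6.30 at P0, 7.55 at P3, 8.57 at P7, 11.28 at P10, 11.21 at P14 and 9.14 at P21. Gad1 had its lowest mean at P10, with 8.91 at P0, 9.44 at P3, 7.08 at P7, 6.28 at P10, 7.79 at P14 and 7.94 at P21. Crym, Hmga2 and Oc90 had lower means at P14 and P21 than at P10, Oc90 with 13.43 at P0, 12.97 at P3, 11.61 at P7, 9.69 at P10, 8.22 at P14 and 5.60 at P21.

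**Figure D5:**
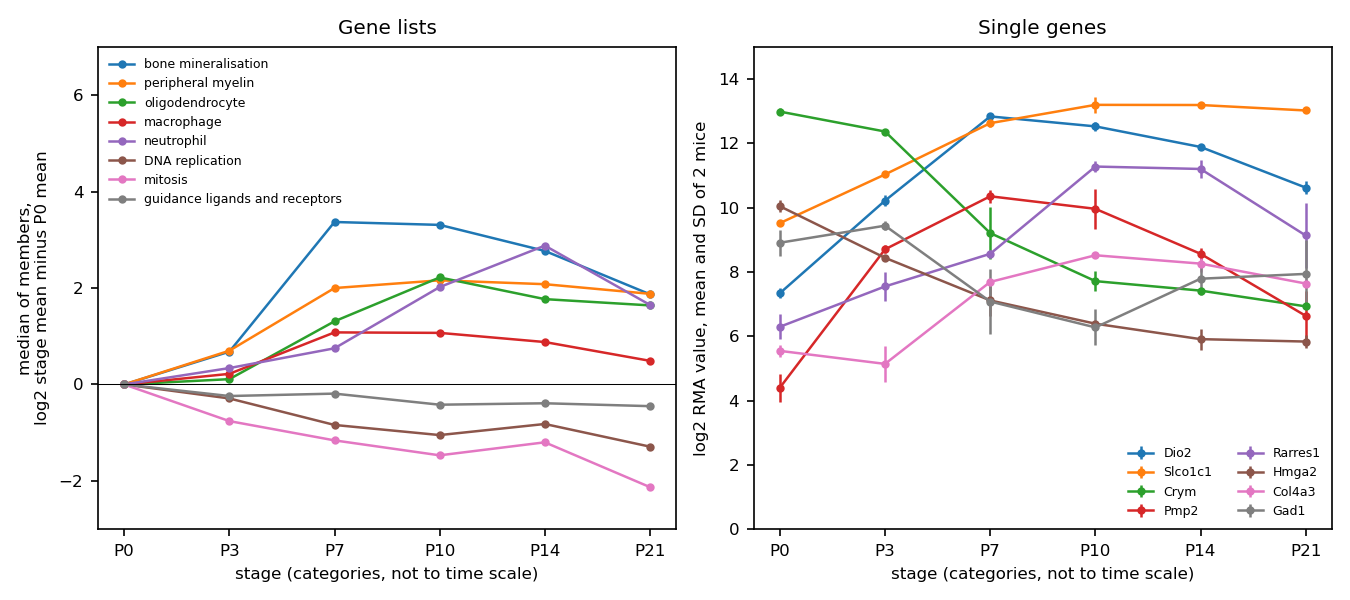
Left, median over the members of 8 gene lists of the log2 stage mean minus the P0 mean. Right, log2 RMA means with the SD of the 2 mice of a stage for 8 genes. The horizontal axes give the 6 stages in order, not to scale. Myelin and bone medians stand near their P10 values of 2.16 and 3.31 at P7, neutrophil genes have their highest median at P14, and Gad1 has its lowest mean at P10.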

How the data were processed

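The authors hybridised RNA of each mouse to an Affymetrix mouse whole-genome expression array and normalized the scans by RMA and by MAS5 in Affymetrix Expression Console, with no version given in the sources used here. The deposited values are log2 RMA values, since all 12 columns have near-equal quartiles, and array medians lay between 6.70 and 6.79. They were used as deposited, with 0 columns of other samples. Arrays have no read depth, and 2 mice a stage limit the precision. RMA equalises the distributions of arrays, so differences are relative to the array as a whole.

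Of 45101 probe sets 64 controls were left out. Of the 45037 tested, 34945 had 1 symbol in the platform annotation, 932 several and 9160 none, and each gene was taken at its brightest single-symbol probe set, by the mean of 12 arrays (18193 genes, 9010 with over 1 probe set). Groups came from the sample titles. The contrast P10 minus P0 was fitted by lmFit and eBayes of limma 3.58.1, under R 4.3.3 (6 residual degrees of freedom, prior degrees of freedom 4.03), with Benjamini-Hochberg adjustment over 45037 probe sets. The fit was tested on simulated data. The 49 gene lists hold 1641 entries, of which 1515 matched a gene. The members and lists were chosen with earlier results of these data known, so list counts are descriptions and no list was tested. Named genes are a selection of the 25 largest changes each way whose arrays do not overlap, up to 6 called members of a list each way, all members of the fatty acid carrier family, called subunits of the channel families and the 10 genes with most opposed probe sets. Other members are named where the text calls them uncalled, where they are partners of a named member, or where they are markers or promoters shown, and these were chosen after their values were seen.

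Alternatives were leaving out each array, a block for the replicate number, eBayes with an intensity trend, array weights, a fit of the 4 arrays alone, a filter on dim probe sets, a shift of all arrays to one median, other fold limits, the mean of a gene's probe sets, and the methods' t-test. The titles do not say that replicate numbers pair the mice. The correlation of deviations of mice with the same number was 0.123 between P10 and P0. Over the 15 pairs of stages it lay between −0.125 and 0.317. Such a correlation cannot exclude that arrays of the same number share something, so the block was kept as an alternative. Promoter sequences and gene spans are those of RefSeq on GRCm38.p6.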

Additional observations from a re-analysis of the deposited data

How the results depend on the processing

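Leaving out each of the 12 arrays in turn gave 6720 to 8822 called probe sets (3072 to 4245 higher at P10, 3648 to 4587 lower), 15 to 40 genes with opposed probe sets and 521 to 692 called list members, against 8695, 40 and 667. With no fold limit 13228 probe sets were called (6004 higher, 7224 lower) and 119 genes were opposed, and with a fold limit of 2 these were 3787 (2025 higher, 1762 lower) and 6. The methods' t-test, which is Student's unpaired test on the 4 arrays (a legend of the study names a paired one for the postnatal arrays, which was not run), called 7428 probe sets at its own limits of p under 0.05 and fold over 1.5, and after Benjamini-Hochberg 97 (36 higher, 61 lower), with 6 list members and 0 opposed genes. Arrays shifted to one median gave 3698 higher and 5284 lower. An intensity trend, array weights, the 4 arrays alone, the dim filter and that shift gave 8424 to 9201 calls. The block for replicate numbers gave 8743 calls (replicate block), 665 list members and 38 opposed genes.

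Of 228 named genes, Otos and Tecta not counted, 206 kept call and direction under every alternative other than the t-test and the fold limits. With those included 11 kept them, and after Benjamini-Hochberg the t-test lost the calls of 209. On the mean of a gene's probe sets 5 of the genes with opposed probe sets changed sign, Asph (0.06), Gas5 (0.34), Rbmx (0.12), Taf1d (0.03) and Zfp606 (0.08), and 7 others lost the call, among them Prph, Grik1, Grik2 and Grik3. Calls of these 228 genes lost or gained without 1 array stand beside the genes.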

Other observations

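In 40 genes at least 1 probe set was called higher at P10 and at least 1 lower, of 1515 genes with at least 2 called probe sets. Dropping P0 replicate 1 left 20 such genes, dropping P0 replicate 2 left 21 and dropping P10 replicate 1 left 15. For these genes the probe set that represents the gene decides the direction, and RNA isoforms were not measured. Asph, an aspartate hydroxylase with several isoforms, had a probe set at 9.22 and 9.21 at P10, against 7.19 and 6.99 at P0, and another at 8.21 and 8.24 at P10, against 9.60 and 9.55 at P0. Its brightest probe set, which represents it, was lower (−0.61, adjusted p = 0.0181) and lost the call without P0 replicate 2 (0.115) or P10 replicate 1 (0.136). Aak1, a kinase of clathrin coats, had differences of 1.25 and −1.23. The 3 RNA-binding proteins of nuclear paraspeckles and splicing also had probe sets in both directions, with 1.19 and −1.31 for Sfpq, 0.99 and −0.92 for Nono, and 1.04 and −0.99 for Rbmx. The brightest probe set of Sfpq (−0.74) fell below the fold limit without P0 replicate 1 (−0.56). The others of the 10 with the largest opposed differences were Taf1d (1.16 and −1.20), Auh (1.78 and −1.02), Zfp606 (1.0 and −1.0), Gas5 (1.71 and −0.93) and Aldh2 (0.92 and −1.04). Mbp, of the myelin list, had 6 of 8 probe sets higher, up to 5.16, and 1 lower (−0.78, adjusted p = 0.0449).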
